A study of Mus musculus with 16 samples.

Results

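The genes described here make, import and load amino acids: 12 enzymes of amino acid and folate metabolism, 8 plasma membrane transporters and 19 cytosolic tRNA synthetase genes, 39 in all among 48432 gene identifiers in the deposited table. They were chosen by symbol, as amino acid genes linked to the transcription factor ATF4 together with cytosolic synthetases; the rule uses no value from these libraries, but it was written with earlier results of these data known. All 39 were found and none was marked as skipped. For 37 of them enough fragments were counted to be tested; Cbs and Slc7a3 were too low.

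Gene expression was measured by RNA sequencing in C2C12 myotubes, the contractile fibres that cells of this mouse myoblast line form on fusing in culture. The EPS group (4 libraries) received electrical pulse stimulation after 5 days of differentiation, with pulses of 6 ms at 1 Hz, a field of 2.75 V/mm, a duty cycle of 0.6% and a polarity switch at 0.5 Hz; such pulses make myotubes twitch and serve as a culture model of muscle contraction. The control group (4 libraries) was left unstimulated and otherwise shared the line, the passage range of 4 to 8, the culture medium and the differentiation. How long the cells were stimulated is not stated. The labels do not say whether each library had its own culture, and p-values therefore reflect only differences among libraries, possibly technical ones.

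Cells sense a shortage of charged tRNA, stress in the endoplasmic reticulum and other insults through kinases that phosphorylate the initiation factor eIF2. Translation of ATF4 then increases, and ATF4, together with C/EBP partners, binds C/EBP-ATF response elements in genes for amino acid synthesis, amino acid import and tRNA charging. In skeletal muscle these genes supply the amino acids and charged tRNAs on which protein synthesis draws.

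The table held 14.7 to 20.7 M fragments (M, 10 to the power of 6) in the EPS libraries, against 12.6 to 20.7 M in control replicates 1, 3 and 4 and 0.354 M in control replicate 2. The limit that a count of 0 allows, 3 fragments, was 0.139 to 0.241 counts per M (CPM) in the 7 deep libraries and 8.52 CPM in control replicate 2; it covers counting error only. In a principal component analysis of log2 CPM control replicate 2 stood alone on the first component (68.4% of the variance); on the second (20.2%) EPS replicates 1 and 2 had scores of 46.4 and 88.1, and the remaining 6 had scores of -45.2 to 1.6. The correlation over genes between a library's deviation in log2 CPM and the log2 length of the transcript was 0.160 and 0.212 for EPS replicates 1 and 2, -0.288 and -0.247 for EPS replicates 3 and 4, and -0.198 to 0.113 for the controls (13947 genes, with no test). Summed over 9 myotube markers with a value, CPM was 14140 to 19110 in EPS libraries and 23210 to 25930 in control libraries. None of the 9 passed edgeR's test (6 had an unadjusted p under 0.05, DESeq2 called 5 lower, and edgeR with replicate number as a block called 6 lower), and all 9 log2 fold changes were negative. Summed markers of proliferating myoblasts spanned 291 to 646 CPM in EPS libraries and 374 to 789 CPM in controls, and those of fibroblasts 56.4 to 197 CPM in EPS libraries and 83.0 to 261 CPM in controls. The fibroblast markers did not move together: Dcn, most of the sum, had a log2 fold change of -0.47 (edgeR adjusted p = 0.646, and 0.0219 with the block), and Pdgfra one of 0.91 (edgeR adjusted p = 0.0542, and 0.0141 with the block), with every EPS library above every control library. Summed macrophage markers spanned 2.90 to 29.7 CPM in EPS libraries and 2.87 to 8.52 CPM in controls, with Adgre1 at 0 in every library. Most of the highest EPS sum was Cd68, at 27.0 CPM in EPS replicate 2. Its log2 fold change was 2.44 (edgeR adjusted p = 0.172, and 0.0708 with the block). Itgam went the other way (-0.91, edgeR adjusted p = 0.528, and 0.0426 with the block). The 8.52 CPM was 3 fragments of Cd68 in control replicate 2. The 5 adipocyte markers together reached at most 0.722 CPM. The part of these differences in the results that follow was not tested, and in such bulk libraries fewer cells of a type and less RNA per cell cannot be told apart.

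Stimulated myotubes had more transcript of the glycine transporter Slc6a9 and of Slc3a2, the heavy chain of several heteromeric amino acid transporters. These 2 of the 37 tested members (5.41%) passed a Benjamini-Hochberg adjusted p of 0.05 in edgeR's quasi-likelihood test over 13987 genes, in which 2.3% of all genes were called higher in EPS. No tested member was called lower, against 0.758% of all genes; DESeq2 called 7 members higher and 0 lower, against 4.62% and 2.14% of the 13714 genes with an adjusted p. On log2 FPKM, limma called 1 member higher and 0 lower at either pseudocount, against 0.672% and 0.207% of all genes at a pseudocount of 0.1 and 0.929% and 0.343% at 1. At an unadjusted p under 0.05, 16 members were higher in EPS and 1 was lower, 45.9% of those tested, against 18.5% of all genes in either direction. The median log2 fold change of the tested members was 0.46, and 31 of 37 were positive; over all genes tested the median was 0.01, and 50.9% were positive.

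Deviations from the group mean correlated at 0.214 to 0.300 over genes between libraries with the same replicate number. Libraries with different numbers were not compared in this way, so pairing by number was assumed. With the replicate number as a block 12 of the 37 tested members (32.4%) were called higher and 0 lower, against 7.31% and 4.78% of all genes. The 12 were the enzymes Psat1, Psph and Cth, the transporters Slc7a1, Slc7a5, Slc3a2, Slc1a4 and Slc6a9, and the synthetases Aars, Eprs, Nars and Tars. In 10 members (27.0%) every EPS library lay above every control library in CPM, as did 9.32% of all genes. Cth is 1 of the 10 by its counts alone. The limit of 8.52 CPM on its 0 in control replicate 2 lies above 3 of its EPS values. Slc1a5, also among the 10, had 1 fragment in that library. In 1 member (2.70%) every EPS library lay below, as did 4.83% of all genes.

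**Figure D1:**
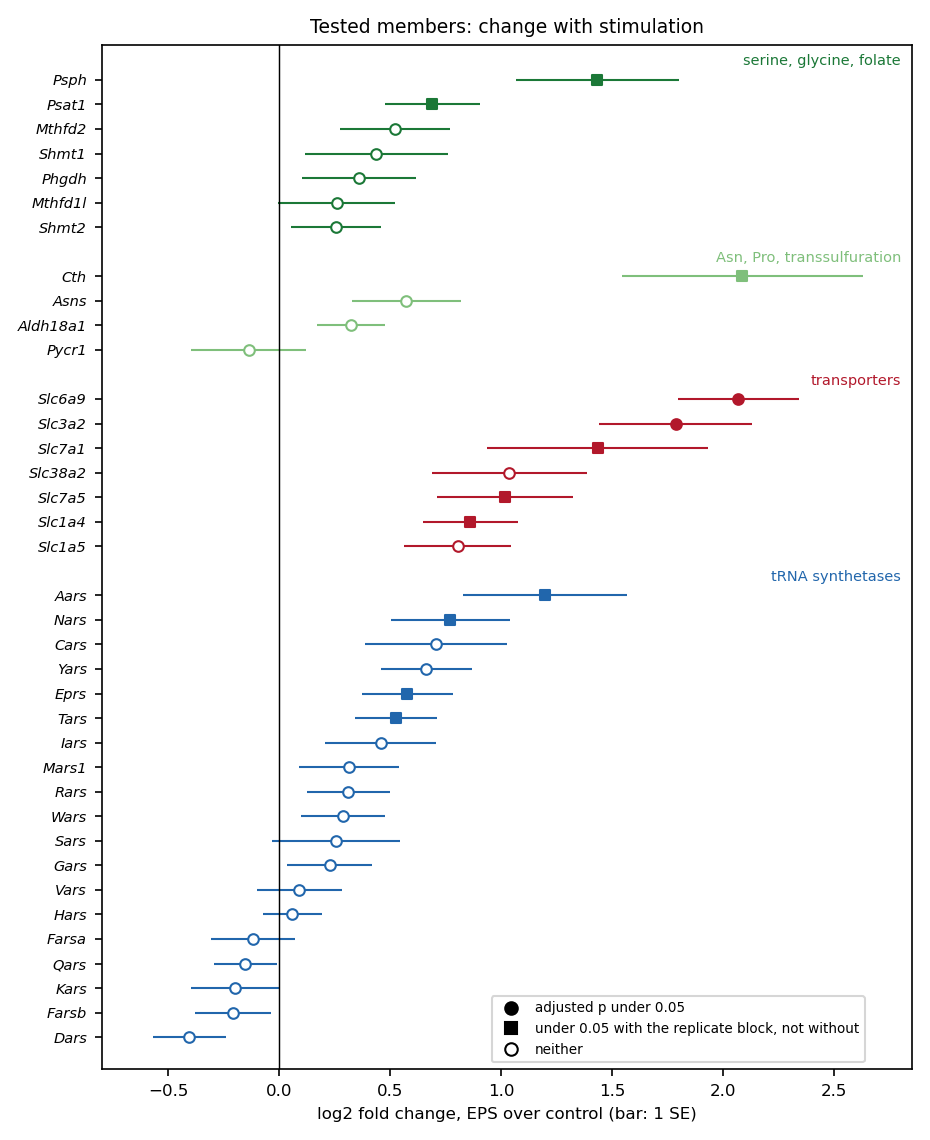
Log2 fold change of the 37 tested members, EPS over control, with bars of 1 SE, grouped by role and ordered by size. Filled circles passed edgeR's test (Slc6a9 and Slc3a2), squares passed it with the replicate block and not without (10 members), and open circles passed in neither; the 7 tested transporters lie between 0.80 and 2.07.

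The promoters of 29 of the 39 genes were in a table of RefSeq promoters of the build GRCm38.p6, each with 250 bases before and 50 after the annotated start; Cth, Slc7a3, Slc7a5, Slc1a5, Cars, Hars, Nars, Rars, Vars and Wars were not. The core of the C/EBP-ATF response element, TGATGNAA on either strand (TTNCATCA on the other), was present in 8 of the 29 (27.6%), against 4.51% of the 27025 genes in the table and 2.64% of the 9936 tested genes with a promoter. The genes were chosen in part as linked to ATF4, and such a link can rest on known elements of this kind. The higher share is therefore a description and cannot test that link. The matches are shown because they are the letters that ATF4 complexes are known to recognise, and because Asns carries the best known of them. Each line gives, for 7 of these 8 genes, the 30 bases around a core on the strand where it reads TGATGNAA, with the core in capitals:
Asns, chr6:7693214-7693243, minus strand: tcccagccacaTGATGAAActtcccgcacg
Pycr1, chr11:120643833-120643862, minus strand: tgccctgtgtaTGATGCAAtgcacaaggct
Slc1a4, chr11:20332699-20332728, plus strand: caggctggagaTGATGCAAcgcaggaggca
Gars, chr6:55037960-55037989, minus strand: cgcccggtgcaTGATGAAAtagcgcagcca
Iars, chr13:49682126-49682155, minus strand: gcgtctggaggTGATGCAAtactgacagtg
Tars, chr15:11399655-11399684, plus strand: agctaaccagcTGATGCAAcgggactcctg
Yars, chr4:129189895-129189924, plus strand: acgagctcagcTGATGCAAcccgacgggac

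A core was found in 5 of 13 synthetase promoters, in 1 of 5 transporter promoters, in 2 of 4 promoters of the asparagine, proline and transsulfuration enzymes, and in 0 of 7 of the serine, glycine and folate enzymes. The median log2 fold change was 0.55 in the 8 genes with a core, of which 7 were positive, and 0.34 in the 20 tested genes with a promoter and no core. Slc3a2 and Slc6a9 had no match in these 300 bases, which says only that these letters are not in this window.

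The transporters had the highest median log2 fold change of the roles. All 7 that could be tested were positive, each with an unadjusted p under 0.05, with a median log2 fold change of 1.04; 2 passed the adjusted threshold and 5 passed it with the block. Slc6a9 (ENSMUSG00000028542.17, chr4:117834506-117875198, plus strand, mm10), which imports glycine, had 139, 158, 88.0 and 88.6 CPM in EPS replicates 1 to 4, against 36.8, 25.6, 29.8 and 19.1 CPM in control replicates 1 to 4. Every EPS library was above every control library, and EPS replicates 1 and 2 were above EPS replicates 3 and 4. The means were 118 ± 35.7 CPM in EPS and 27.8 ± 7.45 CPM in control (SD, n = 4 each), a log2 fold change of 2.07 (SE 0.27, edgeR adjusted p = 0.00363). It passed the threshold under each of 20 alternative settings, with log2 fold changes of 1.85 to 2.27. Its exons overlap those of B4galt2 and Ccdc24 on the opposite strand, and whether the counting used strand is not stated in the labels; these neighbours had adjusted p values of 0.732 and 0.556 in the same edgeR fit.

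Slc3a2 (ENSMUSG00000010095.13, chr19:8706882-8723369, minus strand) had 541, 708, 269 and 257 CPM in EPS replicates 1 to 4, against 174, 116, 119 and 102 CPM in control replicates 1 to 4. The groups did not overlap, and replicate 1 was the highest control. The means were 444 ± 220 CPM in EPS and 128 ± 31.8 CPM in control (SD, n = 4 each; log2 fold change 1.79, SE 0.35, edgeR adjusted p = 0.0239, and 0.000992 with the block). Its call was lost when any of 5 libraries was left out, with log2 fold changes of 1.66 to 1.98. The edgeR adjusted p was 0.0814 without EPS replicate 1 and 0.0527 without control replicate 1. It was 0.0575 without control replicate 2, 0.108 without control replicate 3 and 0.0977 without control replicate 4. DESeq2 also called Slc3a2 higher, while limma on log2 FPKM did not call it at either pseudocount.

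Slc7a5, the light chain that pairs with Slc3a2 and exchanges large neutral amino acids such as leucine, had 452, 671, 294 and 300.4 CPM in EPS replicates 1 to 4 and 304, 176, 207 and 155 CPM in control replicates 1 to 4. The groups overlapped through control replicate 1. Its log2 fold change was 1.02 (SE 0.31, edgeR adjusted p = 0.107, and 0.0173 with the block). Slc7a1, a carrier of cationic amino acids such as arginine, had 223, 375, 87.5 and 92.6 CPM in EPS replicates 1 to 4, against 78.1, 134, 46.0 and 55.1 CPM in control replicates 1 to 4. The groups overlapped only through control replicate 2, the shallow library, and the log2 fold change was 1.43 (SE 0.50, edgeR adjusted p = 0.153, and 0.00179 with the block).

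Slc1a4 and Slc1a5 exchange small neutral amino acids, Slc1a4 among them serine and Slc1a5 among them glutamine. Slc1a4 (chr11:20302180-20332713, minus strand) had 97.8, 125, 90.3 and 105 CPM in EPS replicates 1 to 4, against 59.5, 28.4, 69.7 and 58.8 CPM in control replicates 1 to 4. No control library reached the lowest EPS library, and the log2 fold change was 0.86 (SE 0.21, edgeR adjusted p = 0.0584, 0.0229 with the block, 0.0341 with offsets for transcript length and GC content and 0.0388 without control replicate 2). Slc1a5 had 16.5, 20.3, 14.2 and 14.96 CPM in EPS replicates 1 to 4, against 8.40, 2.84, 11.7 and 9.61 CPM in control replicates 1 to 4. The groups again did not overlap, but the value of control replicate 2, the shallow library, rested on 1 fragment. The log2 fold change was 0.80 (SE 0.24, edgeR adjusted p = 0.106, and 0.0519 with the block).

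Slc38a2 takes up glutamine and alanine with sodium. Over the 8 libraries and in EPS it had the highest mean FPKM (fragments per kilobase, scaled for library size) of the 39 genes. In control the mean of Sars was above it only through control replicate 2, the shallow library (233 FPKM for Sars, 80.4 for Slc38a2). In control replicates 1, 3 and 4 Slc38a2 was the higher, at 142, 113 and 103.5 FPKM against 98.6, 96.3 and 70.4. The mean FPKM of Slc38a2 was 231 ± 133 in EPS and 110 ± 25.3 in control (SD, n = 4 each). In CPM it stood at 1006, 1452, 458 and 487 in EPS replicates 1 to 4, against 509, 369, 390 and 385 in control replicates 1 to 4. EPS replicates 1 and 2 were far above every control library, while EPS replicates 3 and 4 lay just below control replicate 1. The log2 fold change was 1.04 (SE 0.35, edgeR adjusted p = 0.148, and 0.0530 with the block). Slc7a3, another carrier of cationic amino acids, had 1 to 13 fragments in EPS libraries and 0 to 2 in control libraries and was not tested.

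**Figure D2:**
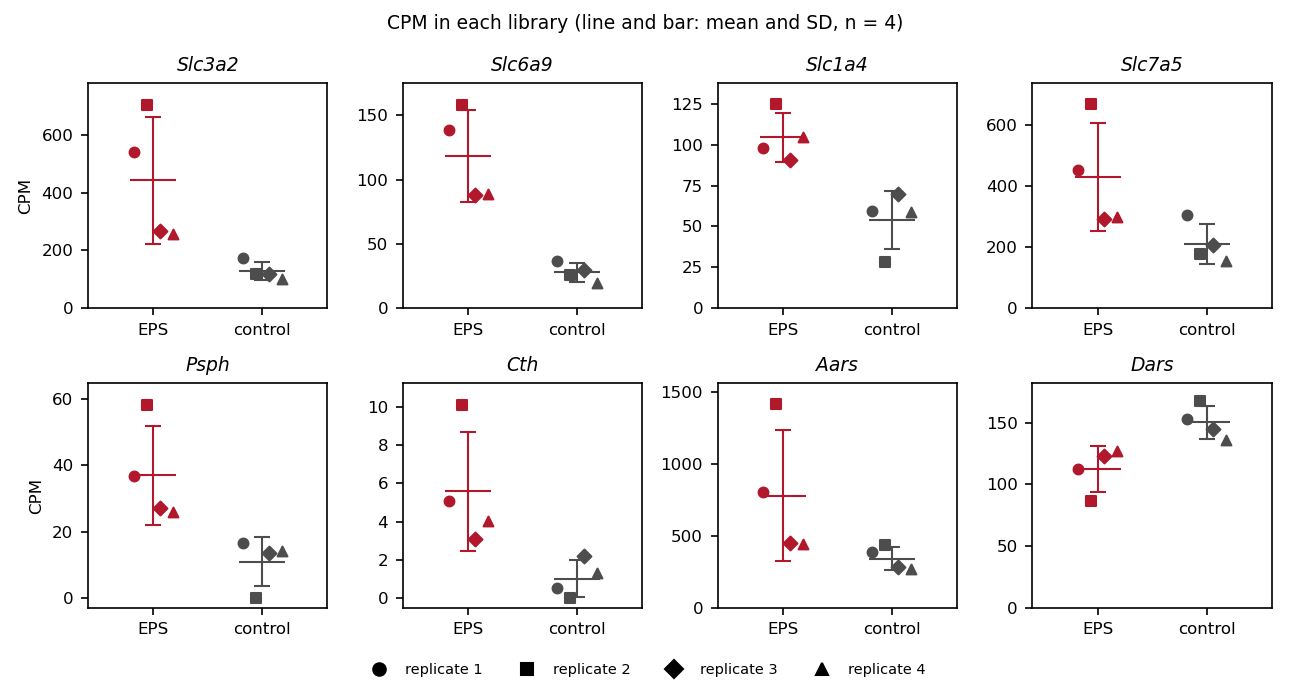
CPM of 8 members in each library, EPS left of control, with a marker for each replicate number, a line at the mean and bars of 1 SD (n = 4 each). The groups do not overlap for Slc3a2, Slc6a9, Slc1a4, Psph and Aars, with EPS above, or for Dars, with EPS below; the plotted values of Cth do not overlap either, but its 0 in control replicate 2 allows up to 8.52 CPM; in Slc7a5 control replicate 1 (304 CPM) lies above EPS replicates 3 and 4 (294 and 300.4 CPM).

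None of the 11 tested enzymes passed edgeR's threshold (4 had an unadjusted p under 0.05, and DESeq2 called 2, Psph and Cth). Of their 11 log2 fold changes 10 were positive, with a median of 0.44, and 3 genes passed with the block. Phgdh, Psat1 and Psph carry a glycolysis intermediate to serine. Psat1 was the most abundant of the serine, glycine and folate enzymes per length, with a mean FPKM of 103 ± 33.2 in EPS and 64.2 ± 9.99 in control (SD, n = 4 each). Its CPM was 202, 306, 180.0 and 174 in EPS replicates 1 to 4, against 155, 128, 141 and 109 in control replicates 1 to 4. The groups did not overlap (log2 fold change 0.69, SE 0.21, edgeR adjusted p = 0.117, and 0.0324 with the block).

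Psph, which removes the phosphate in the last step, had 36.8, 58.1, 27.0 and 25.9 CPM in EPS replicates 1 to 4, against 16.5, 0, 13.5 and 14.2 CPM in control replicates 1 to 4. Each EPS library was above each control library, and the 0 was in the shallow control, where up to 8.52 CPM could have gone uncounted. The log2 fold change was 1.43 (SE 0.37, edgeR adjusted p = 0.0662, 0.0490 without EPS replicate 4, 0.0517 without control replicate 2 and 0.0150 with the block). Its exons overlap those of Cct6a on the opposite strand, which had an adjusted p of 0.389 in the same edgeR fit. Phgdh, the enzyme of the opening step, had a smaller difference, 41.0 to 55.1 CPM in EPS and 17.0 to 54.3 CPM in control (log2 fold change 0.36, SE 0.26, edgeR adjusted p = 0.497). The lowest control value was 6 fragments in control replicate 2, the shallow library. Without that library the log2 fold change was 0.25 (SE 0.23).

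Serine is turned into glycine by Shmt1 in the cytosol and Shmt2 in mitochondria, and Mthfd2 and Mthfd1l carry the freed carbon on through mitochondrial folate. None of these 4 passed with or without the block. Their log2 fold changes were 0.52 for Mthfd2 (SE 0.25), 0.44 for Shmt1 (SE 0.32), 0.26 for Mthfd1l (SE 0.26) and 0.26 for Shmt2 (SE 0.20), and the groups overlapped in each. Shmt1 was low, at 5.37 to 8.82 CPM in EPS and 0 to 5.97 CPM in control, and shares exon sequence on the opposite strand with Smcr8.

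Asns, which makes asparagine, had 97.3, 133, 89.7 and 94.4 CPM in EPS replicates 1 to 4, against 94.0, 79.6, 66.4 and 42.9 CPM in control replicates 1 to 4. It was the most abundant per length of the asparagine, proline and transsulfuration enzymes, with a mean FPKM of 55.6 ± 13.2 in EPS and 38.0 ± 11.9 in control (SD, n = 4 each). The groups overlapped, and the log2 fold change was 0.57 (SE 0.24, edgeR adjusted p = 0.240, and 0.0650 with the block). The proline enzymes gave log2 fold changes of 0.32 for Aldh18a1 (SE 0.15, edgeR adjusted p = 0.298) and -0.14 for Pycr1 (SE 0.26, edgeR adjusted p = 0.822). The Pycr1 promoter holds a core, shown above, and its CPM was 5.51 to 8.73 in EPS and 5.68 to 10.3 in control.

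Cth, which releases cysteine in the transsulfuration pathway, had the largest log2 fold change of the tested members on few fragments. Its counts were 99, 126, 60 and 87 fragments in EPS replicates 1 to 4, against 10, 0, 28 and 28 in control replicates 1 to 4. As CPM these were 5.10, 10.1, 3.10 and 4.02 in EPS and 0.542, 0, 2.204 and 1.34 in control; the 0 allows up to 8.52 CPM. The log2 fold change was 2.09 (SE 0.54, edgeR adjusted p = 0.0693, 0.0486 when EPS replicate 3 was left out and 0.0281 with the block), and over 20 alternatives it ranged from 1.05 to 3.80. Cbs, the enzyme before it, had 0 to 4 fragments in EPS libraries and 0 to 4 in control libraries and was not tested.

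The cytosolic synthetases load amino acids onto tRNAs. None of the 19 passed edgeR's threshold; 6 had an unadjusted p under 0.05, of which 5 were higher in EPS and 1 was lower, and DESeq2 called 1, Aars, higher. With the block 4 were called higher. The log2 fold changes ran from -0.41 to 1.20 with a median of 0.29, and 14 were positive. Aars, the alanine enzyme (ENSMUSG00000031960.14, chr8:111033144-111057664, plus strand), had the largest. It stood at 806, 1419, 454 and 444 CPM in EPS replicates 1 to 4, against 388, 435, 282 and 269 CPM in control replicates 1 to 4. Every EPS library exceeded every control library. EPS replicates 3 and 4 did so by little only against control replicate 2, the shallow library. The log2 fold change was 1.20 (SE 0.37, edgeR adjusted p = 0.113, and 0.00520 with the block).

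Tars, Yars and Dars were the other synthetases whose groups did not overlap. Tars, the threonine enzyme, had 288, 385, 239 and 257 CPM in EPS replicates 1 to 4, against 225, 210.2, 196 and 183 CPM in control replicates 1 to 4 (log2 fold change 0.53, SE 0.18, edgeR adjusted p = 0.157, and 0.0479 with the block). Yars, the tyrosine enzyme, had 84.1, 133, 76.0 and 78.8 CPM in EPS replicates 1 to 4, against 61.6, 45.5, 60.3 and 61.2 CPM in control replicates 1 to 4 (log2 fold change 0.66, SE 0.21, edgeR adjusted p = 0.116, and 0.0667 with the block). In both genes EPS replicate 2 was the highest of the 8 libraries. Yars shares exon sequence on the opposite strand with C77080, which had an adjusted p of 0.113 in the same edgeR fit.

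Dars, the aspartate enzyme, ran the other way. It had 113, 86.4, 123 and 127 CPM in EPS replicates 1 to 4, against 153, 168, 144 and 136 CPM in control replicates 1 to 4. Each EPS library lay below each control library, which held for 2.70% of the tested members and 4.83% of all genes. The log2 fold change was -0.41 (SE 0.16, edgeR adjusted p = 0.218, and 0.132 with the block). Among the 20 alternatives it was called lower only with the block and offsets for transcript length and GC content together. In the fit of replicate sets described below, Dars gave -0.67 in replicates 1 and 2 (edgeR adjusted p = 0.0471). In replicates 3 and 4 it gave -0.16 (edgeR adjusted p = 0.870). The difference between the sets did not pass (-0.51, SE 0.26, edgeR adjusted p = 0.511). Farsb and Farsa, the 2 subunits of the phenylalanine enzyme, Kars (lysine) and Qars (glutamine) also had negative values, -0.21, -0.12, -0.20 and -0.15, each with overlapping groups.

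Sars, the serine enzyme, was the most abundant synthetase per length over the 8 libraries. Its mean FPKM was 136 ± 44.7 in EPS and 125 ± 73.6 in control (SD, n = 4 each). The control mean includes 233 FPKM in control replicate 2, the shallow library. In control replicates 1, 3 and 4 Gars was above Sars, at 120, 96.7 and 77.4 FPKM against 98.6, 96.3 and 70.4. The CPM of Sars was 305, 456, 294 and 280.5 in EPS replicates 1 to 4, against 248, 480.1, 222 and 196 in control replicates 1 to 4. The highest value was in the shallow control, so the groups overlapped (log2 fold change 0.26, SE 0.29, edgeR adjusted p = 0.688). Eprs, which charges both glutamate and proline tRNAs, and Nars, the asparagine enzyme, did not pass over the 8 libraries without the block and passed with it: Eprs had a log2 fold change of 0.58 (SE 0.21, edgeR adjusted p = 0.162, and 0.0190 with the block) and Nars one of 0.77 (SE 0.27, edgeR adjusted p = 0.153, and 0.0362 with the block). Of the remaining 8, Cars (cysteine) had 0.71 (SE 0.32) and Iars (isoleucine) 0.46 (SE 0.25), and Mars1, Rars, Wars, Gars, Vars and Hars lay between 0.06 and 0.31, with overlapping groups in all 8. The exons of Mars1 (methionine) overlap those of Ddit3, which was itself called higher, on the opposite strand, so reads of the 2 genes may not be separable; Hars overlaps Hars2 in the same way.

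The 7 synthetases that reside in the multisynthetase complex, a particle that holds several of these enzymes together, had a median log2 fold change of 0.31 (4 positive), and the 12 outside it 0.27 (10 positive). With the block 1 of the 7 and 3 of the 12 passed. Of 4 further cytosolic synthetase and scaffold genes outside the group of 39, Lars (leucine) had the highest FPKM, with a log2 fold change of 0.43 (SE 0.18, edgeR adjusted p = 0.232), and 0 of the 4 passed; 2 had an unadjusted p under 0.05, and DESeq2 called 1, lower. With the block Aimp2, a scaffold of the complex, was called lower (log2 fold change -0.68, edgeR adjusted p = 0.0143). The 16 tested mitochondrial synthetases had a median of 0.01, none had an unadjusted p under 0.05, and edgeR, DESeq2 and limma each called 0. The most abundant, Iars2, had a log2 fold change of 0.07 (SE 0.16, edgeR adjusted p = 0.861).

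**Figure D3:**
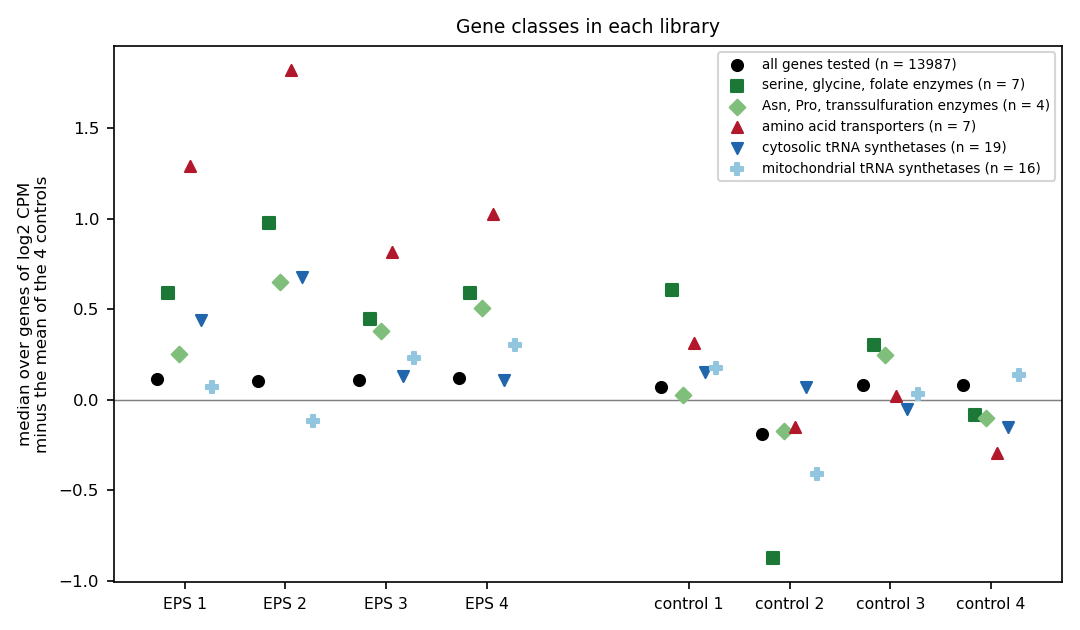
Median over the tested genes of each class of log2 CPM minus the mean log2 CPM of the 4 controls, by library, EPS libraries left of control libraries. The transporters stand at 1.29, 1.82, 0.81 and 1.03 in EPS replicates 1 to 4 and between -0.30 and 0.31 in control libraries. All genes tested stand at 0.10 to 0.12 in EPS libraries and at 0.07 to 0.08 in control replicates 1, 3 and 4. They stand at -0.19 in control replicate 2, the shallow library, which is part of the control mean.

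By library, the median of the 19 cytosolic synthetases was 0.44, 0.68, 0.13 and 0.11 in EPS replicates 1 to 4, against 0.15, 0.07, -0.05 and -0.15 in control replicates 1 to 4, on the scale of log2 CPM minus the control mean. EPS replicates 3 and 4 thus lay within the control range for this class only through control replicate 1. They were close to the median of all genes, while control replicates 3 and 4 lay below theirs (0.08 each). In the fit of replicate sets described next, the class median log2 fold change was 0.315 in replicates 1 and 2 and 0.234 in replicates 3 and 4. For the transporters all 4 EPS libraries lay above all 4 controls. The serine, glycine and folate enzymes stood at 0.59, 0.98, 0.45 and 0.59 in EPS replicates 1 to 4. In control replicates 1 to 4 they stood at 0.61, -0.88, 0.30 and -0.08, and these ranges overlapped. The -0.88 was in control replicate 2, the shallow library, where these 7 genes had 0 to 45 fragments. That library is part of the control mean and so lowered it for this class. EPS replicate 2 was the highest of the 8 libraries for 23 of the 37 tested members (62.2%), against 25.2% of all genes tested. Control replicate 1 lay above the control mean for 29 of the 37 (78.4%), against 51.4% of all genes.

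Because EPS replicates 1 and 2 stood apart, the change was also estimated for replicates 1 and 2 and for replicates 3 and 4. Both estimates came from 1 edgeR fit of all 8 libraries with a shared spread. In replicates 1 and 2 the controls were control replicate 1 and control replicate 2, the shallow library. Fits of each set alone were alternatives with a spread of their own. They called 7 members higher in replicates 1 and 2 alone and 19 in replicates 3 and 4 alone, among 510 and 1156 genes in all. Of the 37 tested members, 30 were positive in both sets and 5 negative in both. The share over all genes was not counted. The median log2 fold change of the members was 0.50 in replicates 1 and 2 and 0.38 in replicates 3 and 4. Over all genes tested it was 0.004 and 0.011. All 7 tested transporters were larger in replicates 1 and 2, with medians of 1.46 there and 0.72 in replicates 3 and 4. Among the 11 enzymes 4 were larger in replicates 1 and 2, as were 23 of all 37 tested members and 6953 of all 13987 genes. Slc6a9 gave 2.10 (SE 0.26) in replicates 1 and 2 and 1.86 (SE 0.23) in replicates 3 and 4, and passed edgeR's test in each. Slc3a2 also passed in each, at 2.03 (SE 0.23) in replicates 1 and 2 and 1.25 (SE 0.22) in replicates 3 and 4. Slc38a2 gave 1.46 (SE 0.23) in replicates 1 and 2 and 0.28 (SE 0.22, edgeR adjusted p = 0.756) in replicates 3 and 4. In the fit of each set alone Slc38a2 was called higher. The test of the difference between the sets called no gene, member or not, after adjustment in edgeR; 3 members and 1483 genes in all had an unadjusted p under 0.05 for it.

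**Figure D4:**
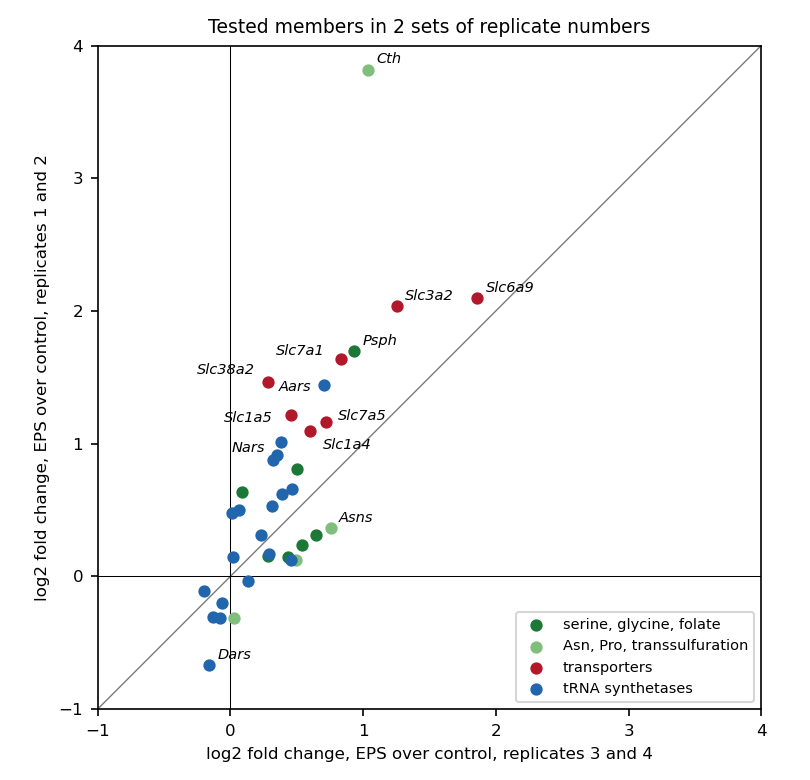
Log2 fold change, EPS over control, of the 37 tested members in replicates 1 and 2 (vertical axis) and in replicates 3 and 4 (horizontal axis), with the line of equality, coloured by role. All 7 transporters lie above the line, while Asns, at 0.36 in replicates 1 and 2 and 0.76 in replicates 3 and 4, lies below it. Over all genes tested, 6953 of 13987 were larger in replicates 1 and 2.

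Genes of the same pathways outside the group of 39 were described from lists of symbols. Of 20 tested further amino acid transporters 1 was called higher and 0 lower, with a median log2 fold change of 0.02; with the block 1 was called higher and 2 lower, Slc1a3 (adjusted p = 0.0401 in edgeR) and Slc7a2 (adjusted p = 0.0109). The gene called higher was Slc7a11, a cystine importer that also pairs with Slc3a2, at 172, 314, 82.2 and 90.3 CPM in EPS replicates 1 to 4 and 1.41, 2.84, 3.15 and 2.01 CPM in control replicates 1 to 4 (log2 fold change 6.25, SE 0.56, edgeR adjusted p = 0.000312). Of 17 tested further folate and methionine cycle enzymes 1 was called higher and 0 lower, with a median of 0.05. It was Mat2a, which makes the methyl donor S-adenosylmethionine, at a log2 fold change of 1.26 (SE 0.18, edgeR adjusted p = 0.00629). Of 20 tested further enzymes of amino acid synthesis and breakdown edgeR called 0 (4 had an unadjusted p under 0.05, and DESeq2 called 1), with a median of 0.09; with the block Bcat1, which transaminates branched-chain amino acids, was called higher (log2 fold change 0.95, edgeR adjusted p = 0.0107). The most abundant of them, Glud1, which deaminates glutamate, had a log2 fold change of 0.23 (SE 0.14, edgeR adjusted p = 0.426).

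Of 15 regulators, partners and targets of ATF4, 6 were called higher and 0 lower, and 8 higher and 0 lower with the block. The 4 with the smallest adjusted p in edgeR's test were Trib3, a pseudokinase that restrains ATF4 (log2 fold change 3.31, SE 0.43, adjusted p = 0.00337), Chac1, which degrades glutathione (3.32, SE 0.47, adjusted p = 0.00489), the transcription factor Cebpb (1.89, SE 0.27, adjusted p = 0.00576) and the transcription factor Ddit3 (2.824, SE 0.43, adjusted p = 0.00737). The transcript of Atf4 itself had 390.3, 493, 451 and 503 CPM in EPS replicates 1 to 4, against 385, 313, 336 and 282 CPM in control replicates 1 to 4. No control library reached the lowest EPS library, and the log2 fold change was 0.48 (SE 0.17, edgeR adjusted p = 0.154, and 0.0758 with the block).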

How the data were processed

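Per the submitters' processing notes, reads were processed with STAR 2.5.1, Cufflinks and Cuffdiff 2.2.1 on the mouse build mm10; per the labels' protocols the libraries came from a stranded kit for total RNA. Neither the strand setting nor the release of the annotation is stated there. Per the file headers, the deposited table holds an unscaled estimated count of fragments and an FPKM for each gene and replicate. The FPKM values, scaled between libraries by the authors' Cuffdiff run, served for levels per length and an alternative test. The 16 GEO samples are 8 libraries of 2 lanes, with 1 value per library; groups and replicate numbers came from the titles. A GENCODE annotation of mm10 gave symbols, lengths and positions (48051 of 48432 identifiers matched). The table marks 46 genes as skipped, and they were left out.

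Estimated counts (93.3% exactly whole) were rounded, filtered with filterByExpr by group (minimum count 10, minimum total 15), and scaled by TMM. The quasi-likelihood test of edgeR 4.0.16 (R 4.3.3, with limma 3.58.1) compared the 4 EPS with the 4 control libraries, without covariates, with Benjamini-Hochberg adjustment over 13987 genes and a threshold of 0.05. The SE of a log2 fold change is its size over the root of F. Log2 CPM had a prior count of 2. Depth was 14.7 to 20.7 M fragments in EPS libraries, against 12.6 to 20.7 M in 3 control libraries and 0.354 M in control replicate 2. The deviations from the group mean of same-numbered libraries correlated at 0.300, 0.214, 0.286 and 0.297 over genes, so the numbers were taken as pairs. Differently numbered libraries were not compared, and the labels do not say what a number marks. Alternatives were the replicate block, offsets for length and GC content (splines with 4 degrees of freedom), both together, DESeq2 1.42.0, RLE scaling, no filter, limma on log2(FPKM + 0.1) and log2(FPKM + 1), skipped genes kept, each library left out, and replicates 1 and 2 or 3 and 4 alone. The block without both libraries numbered 2 was added after seeing the data. The scripts were tested on simulated data. Not every matching promoter window is reported here.

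The 39 members, the lists and the split of replicate numbers were chosen with earlier results of these data known. Members named in full were those past the threshold, those whose groups did not overlap and the most abundant per length of each role; of other lists, up to 4 called genes with the smallest adjusted p or, with none called, the most abundant tested gene. Other genes passing with the block, and Atf4, were named after their values were seen.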

Additional observations from a re-analysis of the deposited data

Results flagged for a closer look

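Among 74 groups of 4 libraries (37 tested members in EPS and in control), 10 held a library set apart from the other 3 by Dixon's test of the gap against the range; chance sets apart about 1 in 20. In EPS, replicate 2 was high for Mthfd2 (95.8 CPM, the others 64.7 to 69.8), Sars (456 CPM, the others 280.5 to 305) and Yars (133 CPM, the others 76.0 to 84.1), and low for Farsa (60.2 CPM, the others 94.4 to 99.0). EPS replicate 3 was low for Shmt2 (100.5 CPM, the others 117 to 118). In control, replicate 1 was high for Slc38a2 (509 CPM, the others 369 to 390.4) and Hars (99.2 CPM, the others 90.5 to 91.3). Control replicate 2, the shallow library, was low for Farsa (71.0 CPM, the others 98.2 to 101), Kars (102 CPM, the others 169 to 178) and Yars (45.5 CPM, the others 60.3 to 61.7). None of these members passed edgeR's threshold.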

How the results depend on the processing

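Over all genes, 322 were called higher and 106 lower. The other counts of higher calls were 1023 with the replicate block, 1049 with the block and length and GC offsets, 1290 with the block without both libraries numbered 2, 633 with DESeq2, 94 and 130 with limma at pseudocounts of 0.1 and 1, 510 in replicates 1 and 2 alone, 1156 in replicates 3 and 4 alone, and 92 to 427 with 1 library left out. Lower calls were 668 with the block, 340 with length and GC offsets, 1196 with both, 1167 with the block without both libraries numbered 2, 294 with DESeq2, 162 with no filter, 29 and 48 with limma, 1121 in replicates 3 and 4 alone, and 22 to 167 with 1 library left out. Of the members, 2 were called higher; the count was 12 with the block, 12 with the block and offsets, 16 with the block without both libraries numbered 2, 7 with DESeq2, 4 with no filter, 1 with limma at each pseudocount, 7 in replicates 1 and 2 alone, 19 in replicates 3 and 4 alone, and 1 to 3 with 1 library left out. Among the 20 alternatives a member (Dars) was called lower only with the block and offsets, a count of 1. Slc6a9 passed in all 20 alternatives and Slc3a2 in 13; both passed with the block. Of 740 member values under the 20 alternatives, 660 kept their direction and side of the threshold, 68 moved past it, 7 (all of Slc3a2) fell short of it and 5 changed sign, none of these past the threshold. The sign changed for Pycr1 (0.034 in replicates 3 and 4 alone, and -0.255 to 0.038 with 1 library left out), Hars (-0.047 in replicates 1 and 2 alone), Farsa (-0.196 to 0.005 with 1 library left out) and Vars (-0.029 to 0.175). It also changed for Iars2, not a member, at -0.042 with offsets, -0.008 with block and offsets, -0.167 in replicates 1 and 2 alone and -0.025 to 0.156 with 1 library left out; the cause was not tested. The block changed no call among members other than the 10 named above. Control replicate 2 limits what can be said of low members: at 0.354 M fragments a count of 0 there allows 8.52 CPM, more than any other control's value of Cth or Shmt1.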
